A study of Bos taurus with 12 samples.

Results

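INHA and FST encode proteins of hormone signalling known from the granulosa cells that surround the oocyte, and STAR a carrier used in steroid hormone synthesis. They were followed here across all 12 bovine Affymetrix arrays of a study of cattle oocytes. Each gene is read by 1 probe set, a group of short probes whose combined brightness gives 1 signal per array. They are 3 of the 9155 genes that the array annotation names, and their 3 probe sets are all those, of 24128, annotated to one of the 3 symbols. The annotation gives them the Entrez identifiers 281254 (INHA), 327681 (FST) and 281507 (STAR). No probe set names a member together with another gene. The genes were chosen by their signals on 3 arrays that stand apart, high for INHA and FST and low for STAR, so those signals are given as a description, without a test.

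The oocytes came from Japanese Black cattle and fall into 4 groups of 3 arrays: adult GV, prepubertal GV, adult MII and prepubertal MII. Adult ovaries were obtained at slaughter, and prepubertal ovaries were removed from farm heifers of 9 to 12 months. GV (germinal vesicle) oocytes, aspirated from follicles of 2 to 8 mm, were taken before maturation, and MII (metaphase II) oocytes carried a polar body after 20 to 22 h of culture with serum. Every array held amplified RNA of 50 pooled oocytes that had been stripped of cumulus cells with hyaluronidase. No treatment or genotype differs between the groups. The pools of a group are labelled as biological replicates without an animal being named for any, so p-values measure the spread between pools, which may share donors.

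INHA encodes the alpha subunit of inhibin. It pairs with a beta subunit, encoded by INHBA or INHBB, to form the hormone that lowers FSH secretion by the pituitary, whereas paired beta subunits form activin. FST encodes follistatin, a secreted protein that binds activin and keeps it from its receptors. STAR encodes the carrier that moves cholesterol to the inner mitochondrial membrane, the entry step of steroid synthesis, and it is known for its rise when follicle cells luteinize after the LH surge. In the cattle annotation INHA lies between OBSL1 and STK11IP, FST between NDUFS4 and MOCS2, and STAR between ASH2L and LSM1.

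Of the 12 arrays, 9 carried high signals of oocyte genes and 3 did not, and the 3 are all labelled replicate 1. BMP15, a growth factor that oocytes secrete, read 7.08 on prepubertal GV replicate 1, 6.55 on prepubertal MII replicate 1 and 6.47 on adult GV replicate 1, against 14.21 to 15.10 log2 units on the other 9. Of 14 oocyte markers 8 were measured, and all 8 were lower on both prepubertal replicate 1 arrays than on any of the 9. On the log2 scale the summed oocyte signal was 9.62 and 10.91 on these arrays, 11.98 on adult GV replicate 1 and 16.28 to 17.54 on the 9. These 3 libraries thus read low for the measured oocyte genes despite their oocyte label. The reason was not tested and need not be the same for all 3. Results are given with and without them.

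INHA was bright on the prepubertal replicate 1 arrays and dim elsewhere. In prepubertal GV arrays it read 12.37, 4.74 and 2.50 log2 units in replicates 1, 2 and 3, and in prepubertal MII arrays 11.91, 6.44 and 4.10. In adult GV arrays it read 7.99, 4.89 and 2.63, and in adult MII arrays 4.67, 0.66 and 3.44. The replicate 1 array was thus the highest of its group in all 4 groups, although in adult MII, where no array lacked BMP15 signal, it was only 4.67. On the linear scale the prepubertal replicate 1 arrays read 5300 and 3840 units, against 1.58 to 86.6 on the 9.

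FST was brightest on the same pair of arrays. It read 12.53, 5.16 and 0.46 in prepubertal GV replicates 1, 2 and 3, and 13.72, 7.67 and 6.04 in prepubertal MII replicates. Adult GV arrays read 7.79, 7.06 and 5.69, and adult MII arrays 4.32, 4.61 and 2.87. The lowest value of all, 0.46 in prepubertal GV replicate 3, and a high one, 12.53, thus stood in the same group, whereas the 3 adult MII arrays stayed within a range of 1.74.

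STAR ran the other way. In prepubertal GV arrays it read 5.10, 11.77 and 13.12, in prepubertal MII 8.74, 11.68 and 12.59, in adult GV 4.91, 12.30 and 13.58, and in adult MII 11.98, 11.56 and 11.85. Every array with high BMP15 signal lay at 11.56 or above, and each of the 3 with low BMP15 signal lay at 8.74 or below. Over the 9 arrays STAR had a median of 11.98 and an SD of 0.70, against SDs of 1.69 for INHA and 2.20 for FST. Prepubertal MII replicate 1 kept more STAR signal than the other arrays with low BMP15, 8.74 against 5.10 and 4.91, while its BMP15 signal was like theirs.

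**Figure D1:**
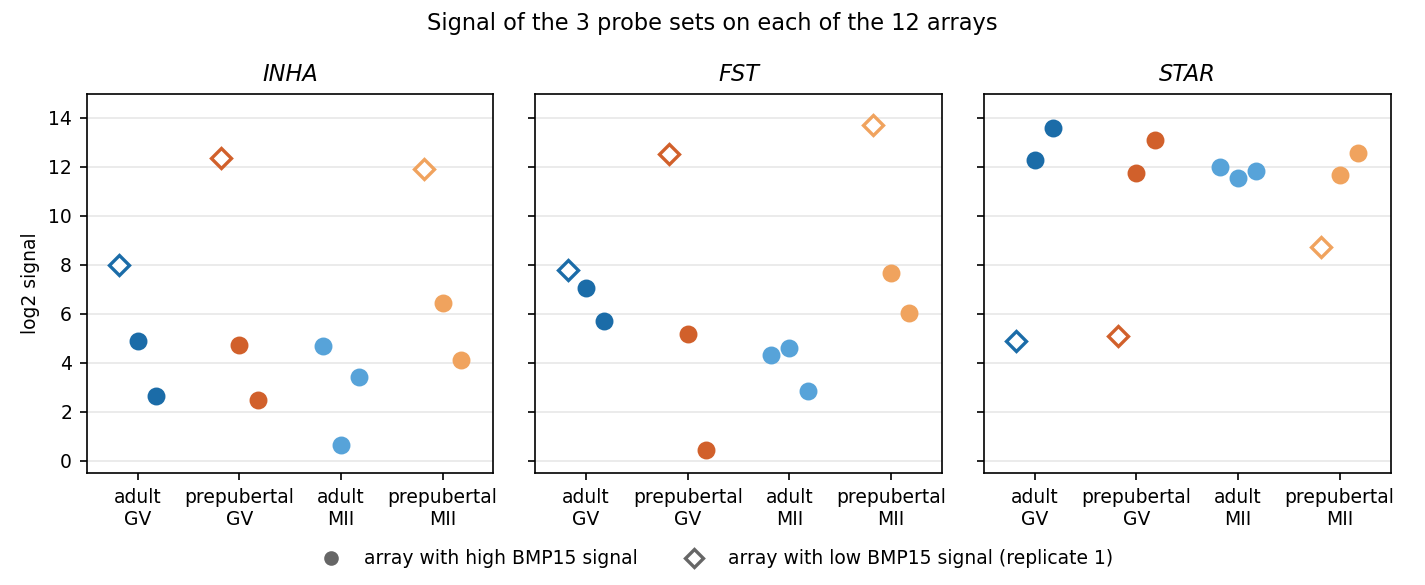
Log2 signal (vertical axis) of INHA, FST and STAR on each of the 12 arrays by group; each symbol is 1 array, and open diamonds mark the 3 arrays with low BMP15 signal. INHA and FST are highest on the diamonds of the prepubertal groups, at 11.91 to 13.72, and STAR is lowest on all 3 diamonds, at 4.91 to 8.74.

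Both prepubertal replicate 1 arrays lay above all 9 others for INHA and FST, as they did for 12.2% of 24016 probe sets (9.98% by rank within the array), and below all 9 for STAR, as for 5.68% (8.32% by rank). These values chose the members and show nothing further. The mean of the 2 arrays lay 8.35 log2 units above the mean of the 9 for INHA and 8.25 above it for FST. For STAR it lay at -5.35 relative to the 9.

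Adult GV replicate 1 needs a scale of its own, because its array median was 8.30 log2 units, against 5.64 to 7.52 on the 9. By log2 signal it too lay above all 9 arrays for INHA (7.99 against at most 6.44) and for FST (7.79 against at most 7.67), so that all 3 arrays lay above the 9, as for 6.48% of probe sets. By rank within the array this held for 3.2% of probe sets and for neither gene. INHA stood at percentile 46.5 of that array's probe sets and FST at percentile 44.3, inside the ranges of the 9 arrays, which were 2.8 to 57.1 for INHA and 1.6 to 68.5 for FST. On the prepubertal replicate 1 arrays the percentiles were 97.4 and 95.4 for INHA and 97.6 and 98.8 for FST, above all 9 on this scale as well. The high INHA and FST signals by rank were therefore seen on 2 of the 3 arrays.

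The low STAR rank was seen on all 3. STAR stood at percentile 18.8 on prepubertal GV replicate 1, 76.0 on prepubertal MII replicate 1 and 5.4 on adult GV replicate 1, against 93.9 to 98.6 on the 9. All 3 arrays lay below the 9 for 5.44% of probe sets by rank and for 3.97% by log2 signal.

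**Figure D2:**
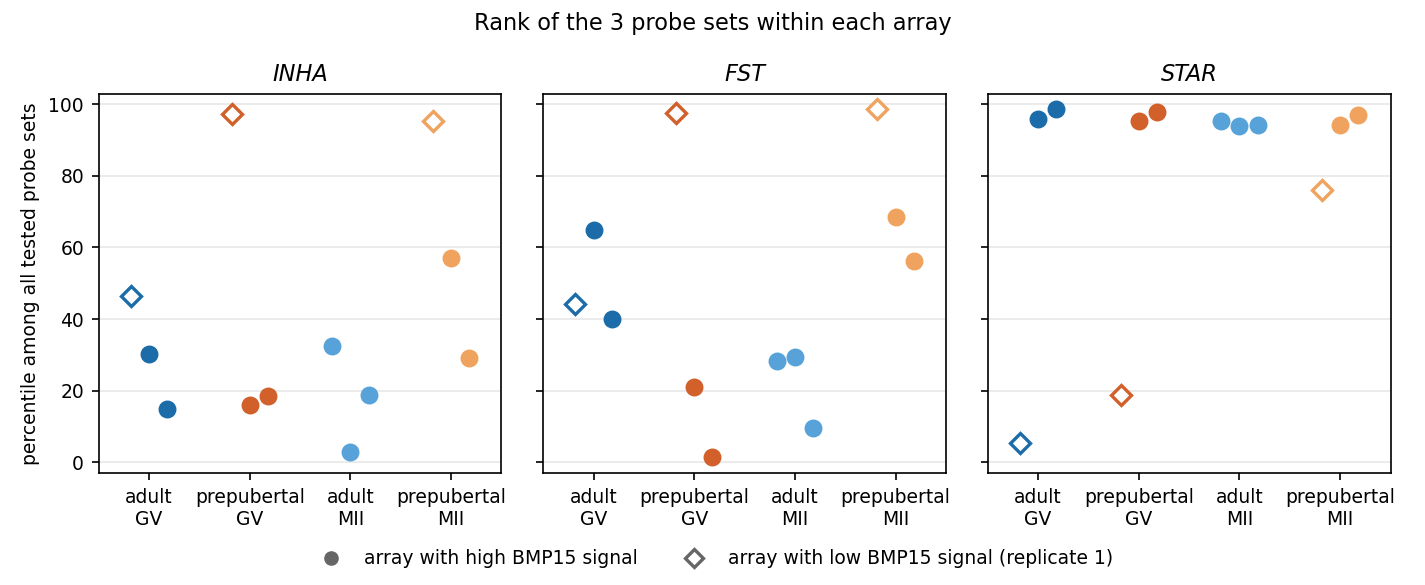
Percentile of each of the 3 probe sets among the 24016 probe sets of the same array (vertical axis), by group; each symbol is 1 array, and open diamonds mark the 3 arrays with low BMP15 signal. On adult GV replicate 1, INHA and FST fall at 46.5 and 44.3, within the range of the filled symbols, while STAR falls at 5.4, far below them.

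Markers of the cells around the oocyte moved with INHA and FST. Of 35 cumulus and granulosa markers 29 were measured. Leaving out the 3 members, 14 of 26 were higher on both prepubertal replicate 1 arrays than on any of the 9, and 0 were lower on both, against 12.2% and 5.68% of all probe sets. By rank within the array 13 of 26 were higher, against 9.98% of all. STAR went against the granulosa label: it was the only measured gene of this list that lay below all 9 on both arrays. Among the 14 were PTX3 and TNFAIP6, which build the expanded cumulus matrix, the adhesion molecule CDH2 and the gap junction gene GJA1. Without the 3 genes the log2 of the summed list signal was 17.97 and 18.56 on those arrays, 13.85 on adult GV replicate 1 and 12.51 to 14.56 on the 9.

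Theca and stroma markers were higher on both arrays for 10 of 18 genes, and by rank for 9 (all probe sets 12.2% and 9.98%), with sums of 14.72 and 15.33 against 10.81 to 11.71 on the 9 and 13.32 on adult GV replicate 1. The theca genes CYP17A1, LHCGR and PTCH1 were not among them by log2 signal or by rank, and INSL3 was so only by rank. Blood cell markers were higher on both prepubertal replicate 1 arrays for 0 of 14, with sums of 10.76 and 9.54 against 9.27 to 11.36 on the 9. On adult GV replicate 1 the blood cell sum was 12.39, above all 9, while the median of the list relative to the array median was -0.69, within the -2.63 to -0.56 of the 9. By group, the summed cumulus and granulosa signal without the 3 genes ran from 12.95 to 17.97 in prepubertal GV, 12.69 to 13.85 in adult GV, 12.84 to 18.56 in prepubertal MII and 12.51 to 14.56 in adult MII. No cumulus and granulosa marker was at 0 on any array, and of the theca and blood lists LUM and CD8A read 0.0 on an array of the 9. The part of these cells in the signals of the members was not tested, and in pooled samples fewer cells of a type cannot be told apart from less RNA per cell.

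Several genes that define granulosa cells did not follow INHA and FST. CYP19A1, the aromatase that makes estradiol, read 9.04 and 3.79 on the prepubertal replicate 1 arrays and 1.39 to 8.92 on the 9. These values are from the probe set with the highest mean of the 4 for CYP19A1. FSHR, the FSH receptor, and AMH, the anti-Müllerian hormone, were not above all 9 on both of these arrays either. CYP11A1, which cuts the cholesterol side chain downstream of STAR, was by log2 signal, at 6.95 and 6.77 against 1.06 to 5.67. By rank CYP11A1 was not, at percentiles 37.1 and 54.4 against at most 41.8 on the 9.

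For each gene the SD was smallest in adult MII, the group with no array of low BMP15 signal. INHA averaged 7.48 ± 4.01 (SD, n = 3) in prepubertal MII, 6.54 ± 5.17 in prepubertal GV, 5.17 ± 2.69 in adult GV and 2.92 ± 2.05 in adult MII. FST averaged 9.14 ± 4.05 in prepubertal MII, 6.85 ± 1.06 in adult GV, 6.05 ± 6.08 in prepubertal GV and 3.93 ± 0.93 in adult MII. STAR averaged 11.80 ± 0.21 in adult MII, 11.00 ± 2.01 in prepubertal MII, 10.26 ± 4.68 in adult GV and 10.00 ± 4.29 in prepubertal GV. For each gene the means next to each other in this order lay closer together than the larger of their SDs. FST in adult GV and adult MII, which are not neighbours in this order, did not overlap and had a log2 difference of -2.92. Such a lack of overlap, with MII lower, was seen for 9.1% of probe sets.

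Groups were compared with limma, whose moderated test was fitted to all 24016 probe sets, with p-values adjusted by Benjamini and Hochberg. Over 12 arrays the comparisons are not independent of how the members were chosen, since the replicate 1 arrays enter them, so each is given again over the 9 arrays. The comparisons share arrays with each other. No member passed an adjusted p of 0.05 in any comparison, over 12 or over 9 arrays.

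At GV, prepubertal and adult arrays did not separate for INHA or STAR. INHA differed by 1.37 log2 units over 12 arrays (95% interval -3.27 to 6.01) and by -0.14 over 9 (-4.22 to 3.95), prepubertal minus adult. STAR differed by -0.27 (-4.13 to 3.60) over 12 and by -0.50 (-2.03 to 1.04) over 9. FST read -0.80 (-5.30 to 3.70) over 12, where the groups overlapped. Over 9 it read -3.57 (-7.60 to 0.46, adjusted p = 0.999), with 2.81 ± 3.32 (mean ± SD, n = 2) in prepubertal and 6.38 ± 0.97 (n = 2) in adult arrays. In these 4 arrays the groups did not overlap, as was the case in this direction for 10.3% of probe sets. Over 12 arrays limma called 0% of probe sets and 518 had unadjusted p under 0.05; over 9 it called 0% and 881 had. Without prepubertal GV replicate 3, the array at 0.46, FST read 1.99 in the 12-array fit.

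At MII, INHA and FST had higher means in prepubertal arrays, and neither passed the adjusted threshold. FST differed by 5.21 (0.71 to 9.71, unadjusted p = 0.0249, adjusted p = 1) over 12 arrays. Over 9 it differed by 2.92 (-0.75 to 6.60, unadjusted p = 0.114, adjusted p = 1), with 3.93 ± 0.93 (mean ± SD, n = 3) in adult and 6.85 ± 1.16 (n = 2) in prepubertal arrays. All prepubertal MII arrays lay above all adult MII arrays for FST, in both sets of arrays. This held for 4.41% of probe sets over 12 arrays and 8.12% over 9. INHA differed by 4.56 (-0.08 to 9.20, unadjusted p = 0.0537) over 12 and by 2.35 (-1.38 to 6.08) over 9, with overlapping groups. STAR differed by -0.79 (-4.66 to 3.07) over 12 and by 0.34 (-1.06 to 1.74) over 9, a change of sign. Limma called 0% of probe sets in both fits, with 622 and 690 at unadjusted p under 0.05. In the 12-array fit the FST difference fell to 2.92 without prepubertal MII replicate 1 and was 4.68 to 6.76 when any other array was left out.

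During maturation in adults the median difference over all probe sets was -0.65 over 12 arrays and -0.07 over 9, so the values are also given relative to it. FST read 2.92 lower at MII over 12 arrays, a log2 difference of -2.92 (-7.41 to 1.58), or -2.27 relative to that median. Over 9 arrays it read -2.45 (-6.12 to 1.23), or -2.37 relative to the median. The adult MII arrays lay below all adult GV arrays for FST in both sets, as for 9.1% of probe sets over 12 arrays and 13% over 9. STAR read 1.53 (-2.33 to 5.40) over 12 arrays and -1.14 (-2.55 to 0.26) over 9. The sign turned when adult GV replicate 1, at 4.91, was left out. In the 5 adult arrays with high BMP15 signal, STAR stood at 12.30 and 13.58 at GV and at 11.56 to 11.98 at MII, without overlap, which the same 13% of probe sets showed. INHA read -2.25 (-6.88 to 2.39) and -0.84 (-4.57 to 2.89). With the letter b that some array titles carry as a covariate over 12 arrays, all 3 genes changed sign here. That letter stands in the titles of 2 of 3 arrays in each GV group and of 0 MII arrays. It is therefore partly confounded with stage. Limma called 0% of probe sets over 12 arrays, with 1862 at unadjusted p under 0.05, and 54 (0.225%) over 9; no member was among the 54.

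During maturation in prepubertal donors FST had a higher mean at MII. It differed by 3.09 (-1.40 to 7.59) over 12 arrays and by 4.04 (0.02 to 8.07, unadjusted p = 0.0491, adjusted p = 0.730) over 9. Relative to the medians of all probe sets, -0.60 and -0.48, these were 3.69 and 4.53. Over the 9 arrays both MII arrays lay above both GV arrays for FST, as for 14% of probe sets; over 12 they overlapped. The 12-array difference of FST was 0.30 without prepubertal GV replicate 3, 0.80 without prepubertal MII replicate 1 and 6.33 without prepubertal GV replicate 1 (unadjusted p = 0.00447, adjusted p = 1). It was 1.51 with a pseudocount of 32 and 6.46 with the letter b as a covariate (unadjusted p = 0.0121, adjusted p = 1). INHA differed by 0.94 (-3.70 to 5.58) and 1.64 (-2.44 to 5.73), and STAR by 1.01 (-2.86 to 4.87) and -0.31 (-1.84 to 1.23). Limma called 0% in both fits, with 1093 and 1635 probe sets at unadjusted p under 0.05.

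The maturation differences of FST had opposite signs at the 2 ages over 12 and over 9 arrays. With the letter b, which only GV arrays carry, as a covariate both were positive (0.45 in adults and 6.46 in prepubertal donors). The difference between them, prepubertal minus adult, was 6.01 (-0.35 to 12.37, unadjusted p = 0.063, adjusted p = 1) over 12 arrays. Over 9 it was 6.49 (1.04 to 11.94, unadjusted p = 0.0217, adjusted p = 1). With a pseudocount of 32 the 12-array value was 3.15 (unadjusted p = 0.167). For INHA it was 3.19 (-3.37 to 9.74) and 2.48 (-3.05 to 8.01). Over 12 arrays the INHA value was 0.97 without prepubertal MII replicate 1, 1.17 without prepubertal GV replicate 3, 1.78 without adult GV replicate 1, 2.06 without adult MII replicate 2, 4.88 without prepubertal MII replicate 3 and 6.10 without prepubertal GV replicate 1. The values were, for STAR, -0.53 (-5.99 to 4.94) and 0.84 (-1.24 to 2.92). Limma called 0% of probe sets for this difference in both fits, and 292 and 760 had unadjusted p under 0.05.

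**Figure D3:**
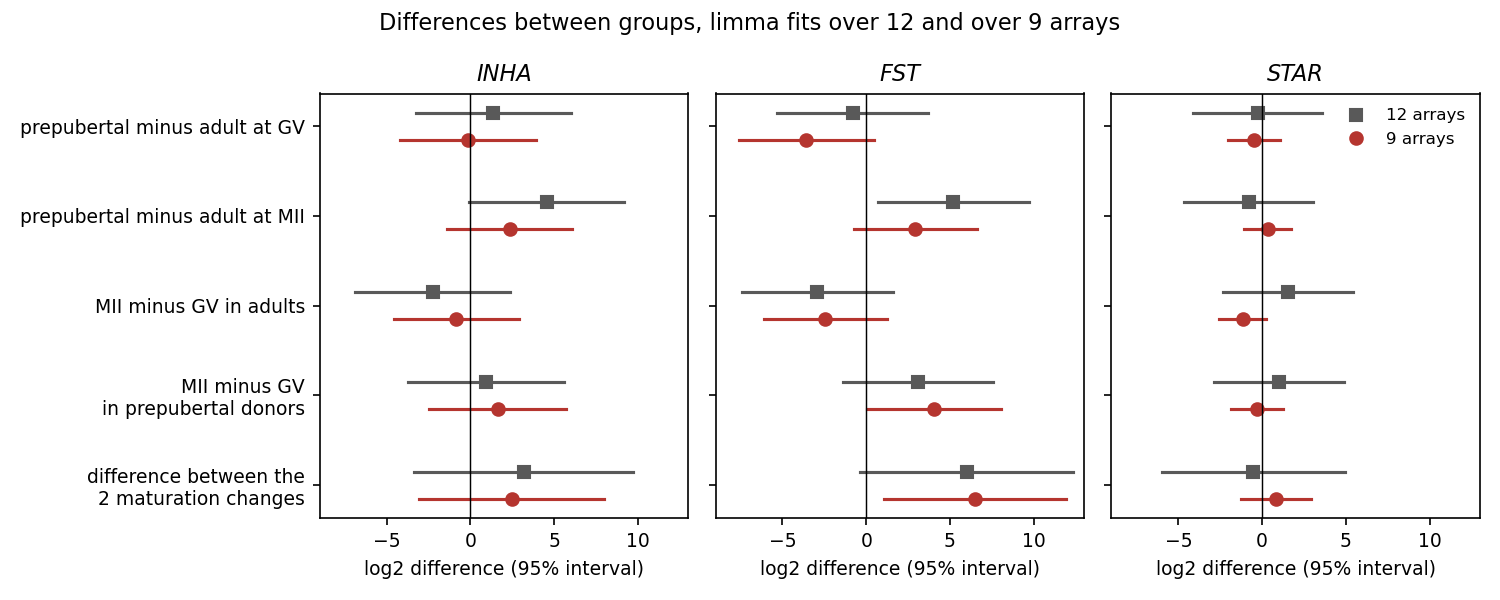
Log2 differences (horizontal axis) of INHA, FST and STAR in the 5 comparisons, with 95% intervals from limma; squares are the fit over 12 arrays and circles the fit over 9. STAR has narrower intervals over 9 arrays than over 12, and of the circles only those of FST for prepubertal maturation and for the difference between the 2 maturation changes have intervals that leave out 0.

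Without the 3 arrays the intervals of STAR narrowed more than those of FST. For maturation in adults the standard error fell from 1.88 to 0.68 for STAR and from 2.18 to 1.77 for FST. INHA lay below the array median on 8 of the 9 arrays and FST on 6 of them. Detection calls were not used here, so whether these dim signals exceed unspecific binding was not tested.

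The other genes of inhibin and activin signalling were counted from a list of 19, of which 11 were measured. Besides INHA and FST, INHBA and the signal mediator SMAD4 were higher on both prepubertal replicate 1 arrays than on all 9, a pattern that 12.2% of all probe sets showed. INHBA, the beta A subunit shared by inhibin and activin, read 10.08 and 12.57 there, 8.47 on adult GV replicate 1 and 2.14 to 8.21 on the 9. Relative to the array medians it read 2.44, 6.06 and 0.17 on these 3 arrays and -4.09 to 2.56 on the 9, so that only prepubertal MII replicate 1 lay above the 9 on that scale. SMAD4 read 11.90 and 12.07, against 6.53 to 9.58 on the 9 and 6.36 on adult GV replicate 1. FSTL3, a relative of follistatin, read 6.44 and 3.65, within or below its range of 4.69 to 7.62. SMAD2, which carries the activin signal to the nucleus, was even by log2 signal, at 12.30 and 12.64 on the prepubertal replicate 1 arrays and 11.62 to 13.02 on the 9. The type I receptor gene ACVR1 was lower on average on those arrays, by a log2 difference of -2.64. By log2 signal 0 of the 11 genes lay below all 9 on both (all probe sets 5.68%). Counted by rank, without INHA and FST, 3 of 9 genes lay above all 9 arrays (INHBA, SMAD2 and SMAD4) and 1 below (ACVR1). The shares of all probe sets by rank were 9.98% and 8.32%.

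In the group comparisons 0 of the 11 genes passed in either direction, over 12 or 9 arrays. At MII 7 of 11 had higher prepubertal values over 12 arrays, with a median of 1.74 against -0.08 over all probe sets. Over 9 arrays it was 6 of 11, with a median of 0.67 against -0.10. At GV it was 6 of 11 in both fits, with medians of 0.23 and 0.46 against 0.03 and 0.27. In maturation the medians over 9 arrays were 0.09 in adults and 0.29 in prepubertal donors, against -0.07 and -0.48 over all probe sets.

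Of 25 steroid synthesis genes listed 17 were measured. On both prepubertal replicate 1 arrays 4 lay above all 9 and 4 below, against 12.2% and 5.68% of all probe sets; 1 of the 4 below is STAR, chosen for that pattern. By rank the counts were 2 above and 5 below, against 9.98% and 8.32%. Below them with STAR were FDX1 (12.03 and 11.41 against 13.30 to 15.19), the ferredoxin that passes electrons to CYP11A1, CYB5A (9.31 and 9.44 against 11.39 to 14.48), a cytochrome b5, and the lipase LIPE (5.04 and 5.64 against 7.68 to 10.27). Above them were CYP11A1, the outer membrane protein TSPO, the lipoprotein receptor SCARB1 and the nuclear receptor NR5A2. None of these 4 read over 9.82 on either array, and by rank CYP11A1 and SCARB1 were not above all 9.

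**Figure D4:**
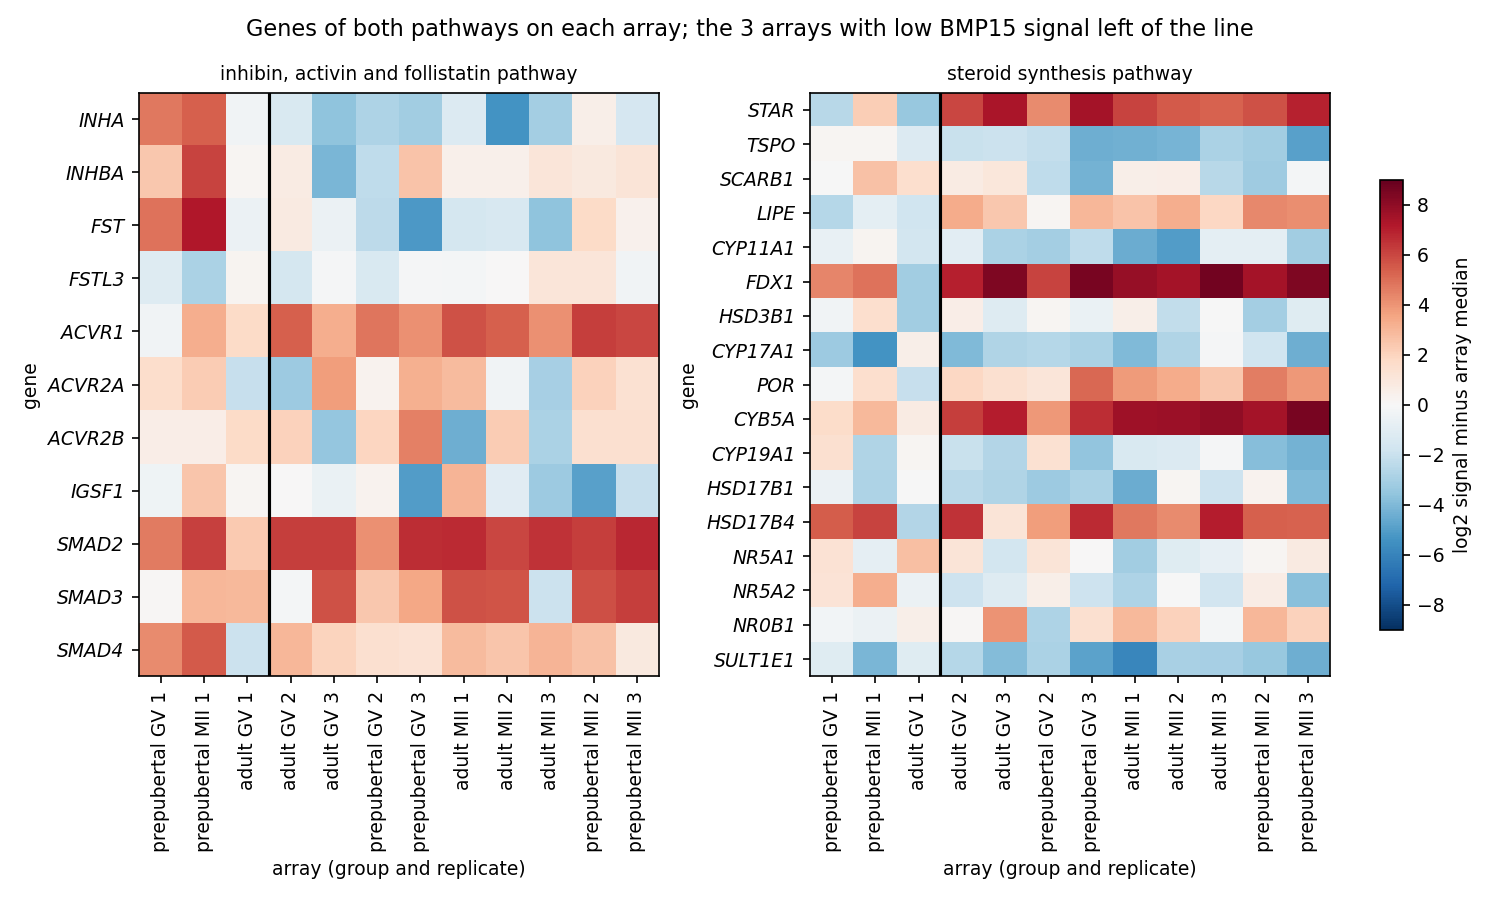
Log2 signal minus the array's median (colour) for the measured genes of inhibin, activin and follistatin signalling (left) and of steroid synthesis (right); columns are the 12 arrays, with the 3 of low BMP15 signal left of the line. STAR, FDX1 and CYB5A are red to the right of the line, and INHA and FST are red on the first 2 columns.

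CYP17A1, the androgen-forming enzyme of theca cells, read 4.34 and 1.14 on the prepubertal replicate 1 arrays and 1.22 to 6.42 on the 9. On adult GV replicate 1 it read 8.83, which was 0.52 relative to the array median, against -4.42 to -0.10 on the 9. HSD17B4 read 13.05 and 12.59 on the prepubertal replicate 1 arrays and 7.41 to 13.56 on the 9, but only 5.65 on adult GV replicate 1. In the group comparisons 0 of the 17 genes passed in either direction in both fits. Higher prepubertal values were read for 7 of 17 at GV in both fits, and for 7 and 6 of 17 at MII.

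STAR gives its name to the START lipid-binding family. Of 13 genes listed 8 were measured, and 0 of the 7 besides STAR lay below all 9 on both prepubertal replicate 1 arrays, near the 5.68% of all probe sets. STARD3NL, a relative of STARD3 without a START domain, lay just above all 9, at 9.35 and 10.64 against 5.17 to 9.34, but not by rank. STARD10, a phospholipid carrier, read 9.92 and 7.65 against 4.29 to 11.25, and CERT1, which carries ceramide, 7.94 and 10.30 against 2.87 to 11.35. STARD10 has another probe set, and the one with the higher mean was used, as for every gene.

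Genes with the pattern most like each member were found by Pearson correlation over 12 arrays, among 8946 genes. These arrays fall into separate sets, so the correlations mainly state which genes share the split, and no p is given. For INHA they were HPSE (0.946), which cuts heparan sulfate, TMEM176B (0.942), the noncoding RNA of X inactivation XIST (0.939), SRPX2 (0.938) and the ER stress gene HERPUD1 (0.932). XIST read 12.17 and 14.00 on the prepubertal replicate 1 arrays, 10.40 on adult GV replicate 1 and 3.87 to 7.80 on the 9. For FST they were the death receptor TNFRSF21 (0.952), the hypoxia factor HIF1A (0.949), the secreted glycoprotein MFGE8 (0.939), the anticoagulant PROS1 (0.933) and RARRES2 (0.928), which encodes chemerin. HIF1A read 14.90 and 14.58 on those arrays and 7.08 to 10.57 on the 9.

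For STAR they were NUDT4 (0.982), the stimulatory G protein subunit GNAS (0.973), the zona pellucida gene ZP4 (0.964), the lipid phosphatase MTMR3 (0.963) and the transcription factor IRF8 (0.963). The oocyte genes BMP15, GDF9 and ZP2 correlated with STAR at 0.920, 0.829 and 0.898. ZP4, an egg coat protein, read 4.57 and 6.22 on the prepubertal replicate 1 arrays, 5.00 on adult GV replicate 1 and 12.13 to 13.97 on the 9. Of all genes, 1.13% correlated with STAR above 0.9, against 0.19% for INHA and 0.112% for FST.

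Over the 9 arrays alone none of these 15 genes stayed among the 5 most alike of its member. STAR was then nearest to POLR2L (0.950), SPSB3 (0.949), ASB6 (0.935), ATP5ME (0.934) and COPS9 (0.920). Among oocyte genes, BMP15 correlated with STAR at -0.04, GDF9 at 0.336 and ZP2 at 0.848. INHA was nearest to PLK4 (0.940) and FST to SLC35B2 (0.916).

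Within the 9 arrays the members were not shown to vary together. INHA and FST correlated at a Pearson r of 0.54 (exact permutation p = 0.128, adjusted over 3 pairs 0.385) and a Spearman rho of 0.67 (exact permutation p = 0.0589, adjusted 0.177). Without the 2 arrays farthest from the INHA median r was 0.60. INHA and STAR correlated at r = -0.25 (exact permutation p = 0.501, adjusted 0.552) and rho = -0.22 (exact permutation p = 0.581, adjusted 0.81), and at r = -0.76 without the 2 farthest arrays. FST and STAR correlated at r = -0.23 (exact permutation p = 0.552, adjusted 0.552) and rho = -0.10 (exact permutation p = 0.81, adjusted 0.81). Without the 2 arrays farthest from the FST median their r was 0.47. All 6 tests were two-sided.

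**Figure D5:**
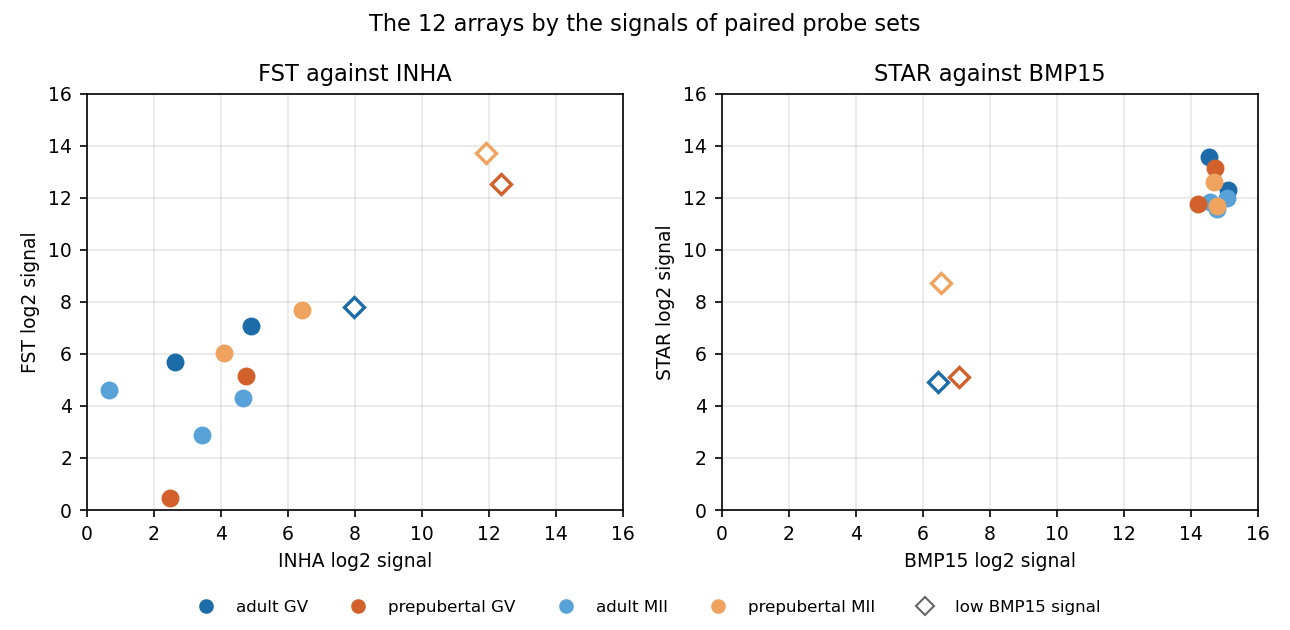
Log2 signal of FST against INHA (left) and of STAR against BMP15 (right); each symbol is 1 array, coloured by group, and open diamonds mark the 3 arrays with low BMP15 signal. The prepubertal diamonds stand alone at the top right for INHA and FST, and on the right the 9 filled symbols gather at STAR values of 11.56 to 13.58.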

How the data were processed

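RNA of 12 oocyte pools had been measured on 1-colour Affymetrix bovine arrays, 3 in each of 4 groups taken from the labels. The values are the log2 signals the authors deposited; MAS5 is named per the submitters' processing notes, its version not given in the sources used here. The mean of linear values without the outer 2% was 500 on every array, so arrays were not scaled again. Of 24128 probe sets 112 controls were left out. No filter on low values was used: over 12 arrays INHA lies under the 40th percentile, and a filter on the mean would pass dim genes through the arrays where they are high. Genes were named from the annotation of the array, updated by Entrez identifier (99.8% matched); 13292 probe sets then had 1 symbol, 86 carried more than that and 10638 remained unnamed. A gene with several probe sets is given by that with the highest mean. One mean per group was estimated by limma 3.58.1 (R 4.3.3) with an intensity trend (8 residual degrees of freedom over 12 arrays, 5 over 9), adjusted by Benjamini and Hochberg. Permutations were run in Python 3.11.15. The fit was tested on simulated data.

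The members, the lists and the removal of 3 arrays were chosen with earlier results of these data known. Named genes are the members, genes of those lists and, per member, the 5 genes with the highest Pearson correlation over 12 and over 9 arrays. The number of arrays limits the precision. Genome coordinates served only to name the neighbours of each member, and no sequences were used. Alternatives were 2 other normalizations, 2 filters, a pseudocount, a fit of the compared groups alone, the same with replicate number as block, a covariate for the letter b in certain titles (its meaning is not given in the labels), no trend, another threshold and leaving out arrays. Counts of list genes by rank and relative to the array median were added after seeing the data.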

Additional observations from a re-analysis of the deposited data

Results flagged for a closer look

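The difference between the maturation changes of FST at the 2 ages was tested over the 9 arrays with high BMP15 signal, and only its unadjusted p was under 0.05. Prepubertal minus adult, it was 6.49 log2 units (SE 2.63, limma, unadjusted p = 0.0217), and it failed the correction over 24016 probe sets (adjusted p = 1). FST was higher at MII in 2 of 2 prepubertal arrays than in either GV array (7.67 and 6.04 against 5.16 and 0.46), and lower in 3 of 3 adult arrays (4.32, 4.61 and 2.87 against 7.06 and 5.69). The prepubertal pattern was seen for 14% of all probe sets and the adult pattern for 13%. For the difference between the maturation changes, 760 of 24016 probe sets had unadjusted p under 0.05 in limma over the 9 arrays. These FST signals were dim, below the array median on 6 of the 9 arrays. Over 12 arrays the difference between the maturation changes of FST was 6.01, and 3.15 with a pseudocount of 32 (unadjusted p = 0.167). The 12-array value was 3.22 without prepubertal GV replicate 3, 3.72 without prepubertal MII replicate 1 and 9.25 without prepubertal GV replicate 1, and lay between 5.48 and 7.56 without any other array.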

How the results depend on the processing

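Of 372 recomputed differences of the members, 332 kept their direction and side of the threshold, 39 changed sign and 1, FST at MII (5.21), passed a looser threshold (unadjusted p below 0.05 and a 2-fold change). No member passed the adjusted threshold in any limma fit (lowest adjusted p = 0.352), so the sign changes concern differences that never passed. The cause was not tested. Values in brackets are ranges over leaving out single arrays. INHA at GV turned to -0.14 over 9 and 8 arrays, -0.46 with centring and -0.66 with quantile normalization of the 9, (-1.55 to 3.39). FST at GV turned to 0.64 with a pseudocount of 32 (-4.04 to 1.99). STAR at GV turned to 0.31 with quantile normalization (-2.94 to 2.18). STAR at MII turned to 0.34 over 9 arrays, 0.71 and 0.36 with centring and quantile normalization of these, and 0.37 over 8 (-1.58 to 0.34). With the letter b, which only GV arrays carry, as covariate, adult maturation turned to 1.04 for INHA, 0.45 for FST and -1.69 for STAR. STAR there also turned to -1.14 over 9 arrays, -1.04 and -1.05 with centring and quantile normalization of these, and -1.17 over 8 (-1.14 to 3.19). In prepubertal maturation INHA turned only when arrays were left out (-1.27 to 3.86). STAR there turned to -2.21 with the letter b, -0.31 over 9 and 8 arrays and -0.40 with quantile normalization of the 9 (-1.44 to 2.57). The difference between the maturation changes of STAR turned to 0.84 over 9 arrays, 1.54 and 0.65 with centring and quantile normalization of these, and 0.86 over 8 (-2.97 to 2.15).

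The counts of called probe sets rose from 0 with the looser threshold, to 518 and 622 between the ages at GV and MII, 1862 and 1093 for maturation in adults and prepubertal donors, and 292 for the difference between the 2. For adult maturation they were 54 over 9 arrays, 1 and 35 with centring and quantile normalization of these, 83 over 8, and 0 to 1 when single arrays were left out; for prepubertal maturation 5 over 8 arrays. The fits over 8 arrays, without adult MII replicate 3 as well, and those of the 9 arrays with another scaling were chosen after seeing the data. In fits of the compared groups that took replicate number as block, 5 and 6 probe sets passed for maturation in adults and prepubertal donors, and 0 in the others. Same-numbered arrays correlated at 0.498, 0.094 and 0.227 in their deviations from the prepubertal group means, not all over 0.1, so the numbers were not treated as pairs. The lead of the prepubertal replicate 1 arrays over the 9 moved to 6.47 for INHA with the pseudocount and to -6.23 for STAR with centring. The filter at the 40th percentile removed INHA, and that at the 60th INHA and FST, which limits what dim signals can show.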
